A study of Mus musculus with 2 samples.

Results

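The genes described here encode the beta and gamma subunits of heterotrimeric G proteins, and their RNA levels were compared between control and *Klf9*-OE mouse primordial germ cells (PGCs, the embryonic precursors of eggs and sperm). They were chosen by symbol and not by a rule on their values, though with earlier results of these data known. There were 5 beta genes (*Gnb1* to *Gnb5*) and 5 gamma genes (*Gng2*, *Gng5*, *Gng10*, *Gng11* and *Gng12*). Of these 10 genes, 9 were found by exact symbol among the 18737 named genes that were above 0 in at least 1 library. *Gnb2* was listed in both libraries only under a joint name with *Mir6418*, a microRNA gene inside it, so its value is given as that of the joint row and was left out of the counts unless stated.

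Both libraries came from PGCs of E13.5 embryos that carried the Oct4-deltaPE-GFP transgene, sorted for strong GFP, which an *Oct4* enhancer drives in germ cells, from dissected genital ridges of both sexes. They received, at an MOI (infecting virus particles per cell) of 5, either a control lentivirus or a CSII-EF-MCS lentivirus that expresses *Klf9*, and were kept on gelatin for 1 day. Which of the empty or mCherry control vectors served for these libraries is not given in the sources used here. The sample labels place bFGF in the medium of both libraries, whereas the paper describes this culture as lacking bFGF. There was 1 library per condition, so no difference has a replicate check, no p-value was calculated, and the condition cannot be told apart from any other difference between the cultures. *Klf9*, the over-expressed gene, had 2.27 FPKM (fragments per kilobase of exon, scaled to the mapped fragments of the library) in control PGCs and 80.8 FPKM in *Klf9*-OE PGCs.

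The files hold no read totals, and each FPKM has a 95% interval from Cufflinks, the program that estimated it. The interval covers the error of estimation within a library only. Where its width depends on read number alone, it gives back the number of reads behind a value, and by this measure the *Klf9*-OE library had 1.21 reads for each control read (median over 6136 genes). Even numbers made up 36.4% of the values in control (2132 genes) and 89.0% in *Klf9*-OE PGCs (1767 genes) among genes with 1 to 9 such reads, where values within 0.06 of a whole number were counted. Since reads counted in pairs would make the *Klf9*-OE intervals too narrow, calls of the members are also given with those intervals widened by the square root of 2, and genes of the other lists whose call this changes are named for that reason. Markers of germ cells were abundant in both libraries, with *Pou5f1* at 387 and 277 FPKM and *Dazl* at 351 and 378 FPKM in control and *Klf9*-OE PGCs, respectively.

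A heterotrimeric G protein couples a receptor in the cell membrane to enzymes inside the cell. Its alpha subunit binds GTP when the receptor is active, and the beta and gamma subunits stay together as a dimer that is released to act on its own targets, such as phospholipase C beta, some adenylate cyclases and PI3 kinases. Beta subunits fold as a propeller of WD repeats with the help of the CCT chaperonin and the phosducin-like protein PDCL. Gamma subunits are small and carry a lipid (prenyl) group that anchors the dimer to the membrane. In PGCs, signals through G protein-coupled receptors include the CXCL12 receptor CXCR4, which guides migration to the gonad, and raised cAMP is known to promote PGC growth.

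The bases before the start sites of *Gnb1* and *Gng5* are shown because these were the members that were lower with intervals that did not overlap. KLF9 is a zinc finger protein of the family that binds GC boxes, and the capitals mark the GC-box core GGGCGG or its reverse complement CCGCCC. Each sequence is the 250 bases before a RefSeq start in GRCm38.p6, the same build as mm10, read 5′ to 3′ on the strand of the gene. *Gnb1* is on the forward strand (chr4:155491111-155491360), and *Gng5* is on the forward strand (chr3:146499586-146499835). The *Gnb1* window lies before the locus of the control library and inside that of the *Klf9*-OE library, which starts at 155491040.
Gnb1: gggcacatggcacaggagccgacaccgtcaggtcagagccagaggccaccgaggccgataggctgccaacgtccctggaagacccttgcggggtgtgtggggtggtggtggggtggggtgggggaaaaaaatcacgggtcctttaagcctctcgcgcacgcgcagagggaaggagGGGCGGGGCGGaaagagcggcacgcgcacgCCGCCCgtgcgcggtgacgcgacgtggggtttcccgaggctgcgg
Gng5: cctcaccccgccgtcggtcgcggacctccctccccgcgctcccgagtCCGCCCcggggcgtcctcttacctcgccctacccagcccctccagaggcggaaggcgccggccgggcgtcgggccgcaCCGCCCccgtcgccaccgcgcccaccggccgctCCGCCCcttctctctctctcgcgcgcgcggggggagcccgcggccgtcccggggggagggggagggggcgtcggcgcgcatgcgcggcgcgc

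The core was found 3 times before *Gnb1*, where 2 matches overlap, and 3 times before *Gng5*. Of 32851 RefSeq promoters of the same length, 32.7% held at least 1 core and 8.47% held 3 or more. Both promoters were picked by the difference of their genes, and the shares cover promoters of genes at any level. They are therefore no measure of enrichment. RefSeq starts were found for 7 of the 10 members, and 4 of these 7 held a core: *Gnb1*, *Gng5*, *Gng10* and *Gng12*. This counts genes, whereas the shares count promoters, and a second window of *Gng12* held no core. The window of *Gng2* lies inside its locus, behind the start of the measured transcripts, and is not shown. A match of these letters is a description and was not tested for binding of KLF9.

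*Gnb1* and *Gng5* were the most abundant beta and gamma genes in both libraries, and both were lower in *Klf9*-OE PGCs. *Gnb1* had 377 FPKM (95% interval 365 to 389) in control and 245 FPKM (238 to 252) in *Klf9*-OE PGCs. *Gng5* had 253 FPKM (239 to 267) in control and 200.4 FPKM (192 to 209) in *Klf9*-OE PGCs. *Gng2* was higher in *Klf9*-OE PGCs, at a far lower level. No other member found by symbol had intervals that did not overlap. With the *Klf9*-OE intervals widened, those of *Gnb1* and *Gng5* still did not overlap, and 0 members were higher and 2 lower. Under this rule 8.46% of all genes were higher and 12.0% lower, and 11.7% and 16.8% of genes with at least 1 FPKM.

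**Figure D1:**
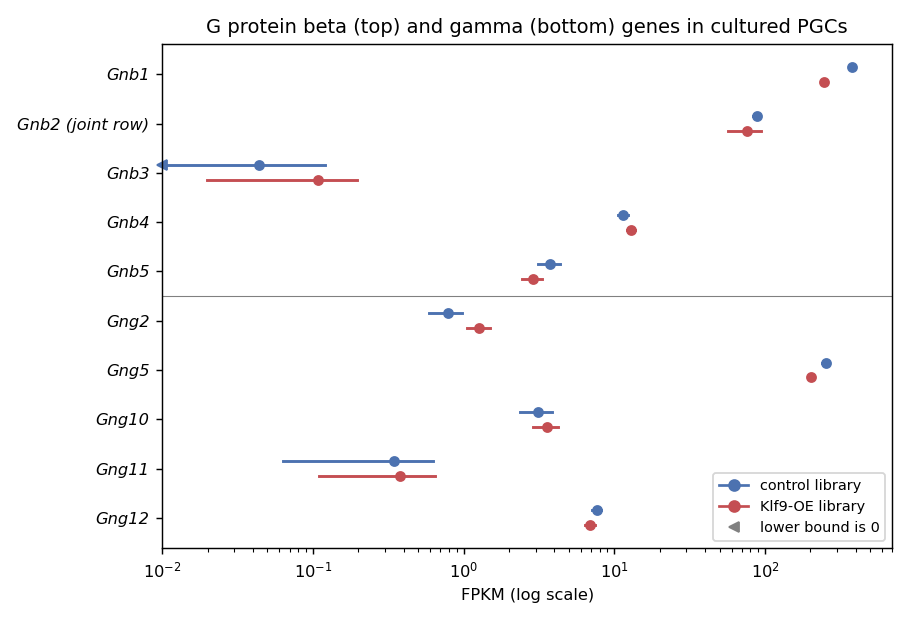
FPKM of each beta gene (top) and gamma gene (bottom) in the control library (blue) and the Klf9-OE library (red), on a log scale. Points are the deposited values and lines are their Cufflinks 95% intervals, some of which are shorter than the point. *Gnb1* and *Gng5* lie above 200 FPKM in both libraries, and *Gnb3* and *Gng11* lie below 1 FPKM in both.

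Among the beta genes, *Gnb1* encodes the G beta subunit found in most tissues. It lies on chromosome 4 from 155491361 to 155559269 of mm10, and its principal transcript in GENCODE has 12 exons. The ratio of *Klf9*-OE to control was 0.650 (0.623 to 0.679, from the bounds of both values), which is -0.62 as a log2 fold change. The level of *Gnb1* was at percentile 99.1 of all genes in control and 98.6 in *Klf9*-OE PGCs. None of its 3516 distinct stretches of 51 bases, the read length, occurred in the transcripts of another gene. Both libraries give *Gnb1* as an assembled locus, which starts at 155491361 in control and at 155491040 in *Klf9*-OE PGCs, so the length behind the FPKM may differ. The widths of its intervals did not follow the FPKM: they correspond to 3938 reads in control and 4675 in *Klf9*-OE PGCs, a ratio of 0.977 after correction for depth, against 0.650 for FPKM. The same held for *Gng5*, with 1271 and 2228 reads and a corrected ratio of 1.44 against 0.791. The read numbers behind both genes are therefore unknown, as for 461 of the 720 genes with at least 100 FPKM in both libraries, of which 36.0% had widths and FPKM that differed by no more than 10%. The part of this in the *Gnb1* difference was not tested.

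*Gnb2* encodes a second widely expressed beta subunit and lies on chromosome 5 from 137528129 to 137533229 in the files. The joint row with *Mir6418* had 87.8 FPKM (83.0 to 92.6) in control and 75.4 FPKM (56.8 to 94.0) in *Klf9*-OE PGCs, so the intervals overlapped. The half-width of the interval was 5.46% of the value in control and 24.6% in *Klf9*-OE PGCs. The ratio of the libraries, 0.859, had an interval of 0.667 to 1.10. *Mir6418* shares 30 of its 115 bases with *Gnb2* exons.

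*Gnb4* (chromosome 3, 32583528 to 32616535) encodes a beta subunit close in sequence to those of *Gnb1* and *Gnb2*. It had 11.4 FPKM (10.6 to 12.2) in control and 13.0 FPKM (12.2 to 13.8) in *Klf9*-OE PGCs, with intervals that overlapped narrowly. Its widths gave 790 reads in control and 1103 in *Klf9*-OE PGCs. The ratio of 1.13 had an interval of 1.03 to 1.25, and 1.02 to 1.27 with the *Klf9*-OE interval widened. *Gnb4* was therefore on the opposite side of 1 from *Gnb1*, and the level of *Gnb1* was 33.0 times that of *Gnb4* in control and 18.9 times in *Klf9*-OE PGCs.

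*Gnb5* (chromosome 9, 75306288 to 75345923) encodes the divergent beta subunit that pairs with R7 RGS proteins, which speed up GTP hydrolysis by alpha subunits, in place of a gamma subunit. It had 3.73 FPKM (3.11 to 4.36) in control and 2.89 FPKM (2.45 to 3.32) in *Klf9*-OE PGCs. The ratio of 0.773 had an interval of 0.617 to 0.968, which reached 1.01 when widened. *Gnb3* (chromosome 6, 124834240 to 124840275), known from cone photoreceptors and taste cells, had 0.0442 FPKM (0 to 0.121) in control and 0.109 FPKM (0.020 to 0.198) in *Klf9*-OE PGCs. It was the only member with a ratio of at least 2, but its ratio of 2.46 had an interval of 0.361 to 16.7, and a difference was not detectable at this depth.

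Among the gamma genes, *Gng5* encodes a gamma subunit with a wide tissue distribution. It lies on chromosome 3 from 146499836 to 146505558 in the control library. The ratio of *Klf9*-OE to control was 0.791 (0.738 to 0.849), which is -0.34 as a log2 fold change. Of its 2759 distinct stretches of 51 bases, 5.76% also occurred in the transcripts of other genes, 82 of them in a single gene. The control row is an assembled locus and the *Klf9*-OE row is the annotated gene, and the part of this in the *Gng5* difference was not tested. The ratio of *Gnb1* to *Gng5* was 1.49 in control and 1.22 in *Klf9*-OE PGCs.

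*Gng2* encodes the gamma subunit most often used with beta 1 in studies of the dimer, and lies on chromosome 14 from 19872559 to 19977249 in the control library. It had 0.784 FPKM (0.593 to 0.975) in control and 1.27 FPKM (1.05 to 1.49) in *Klf9*-OE PGCs. The ratio was 1.62 (1.20 to 2.18) and the log2 fold change was 0.63, and the widths gave 67.3 and 135 reads. With the *Klf9*-OE interval widened to 0.960 to 1.58 FPKM, the intervals of *Gng2* overlapped. The opposite strand holds *Gm48283*, a long noncoding RNA gene that covers 20.4% of the exonic bases of *Gng2*, and the library kit does not keep strand, so reads of these genes cannot be told apart there.

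The remaining gamma genes had intervals that overlapped. *Gng12*, a gamma subunit known for binding to actin filaments, lies on chromosome 6 from 66896397 to 67021361. It had 7.62 FPKM (7.07 to 8.18) in control and 6.91 FPKM (6.41 to 7.41) in *Klf9*-OE PGCs, a ratio of 0.907 with an interval of 0.818 to 1.00. *Gng10*, a broadly expressed gamma gene on chromosome 4 from 59035156 to 59042039 in the control library, had 3.12 FPKM (2.37 to 3.88) and 3.57 FPKM (2.89 to 4.26). The gene model *Gm20503* shares 901 of the 1142 stretches of 51 bases of *Gng10*, so the value of *Gng10* is uncertain. *Gng11* (chromosome 6, 4003987 to 4008446), whose product carries a farnesyl group, had 0.344 FPKM (0.0632 to 0.625) and 0.376 FPKM (0.110 to 0.642). Behind these values were 6 and 8 reads, so *Gng11* was close to the limit of detection in both libraries and a difference was not detectable at this depth.

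Of the 9 members, 1 (*Gnb3*) had a ratio of 2 or more, against 9.83% of all 18737 genes, and 0 had a ratio of 0.5 or less, against 9.44% of all genes. Intervals did not overlap for 1 member that was higher and 2 members that were lower, against 11.2% and 14.4% of all genes, and against 14.8% and 20.2% of the 12560 genes with at least 1 FPKM in at least 1 library. Of the 9 members, 7 had at least 1 FPKM in at least 1 library. With so few members, these counts were near the background in both directions. The median log2 fold change was 0.10 over the 9 members, and -0.14 over the 7 with at least 1 FPKM, beside -0.015 over all genes and -0.026 over genes with at least 1 FPKM. With the joint *Gnb2* row added, the median over the members was -0.02, so it has no settled sign.

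**Figure D2:**
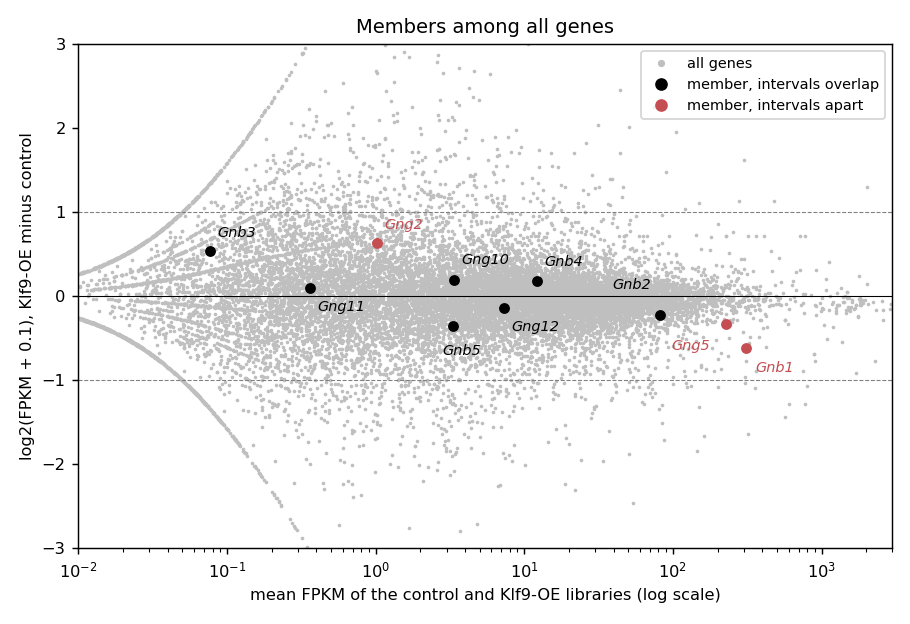
Difference between the libraries on the scale of log2(FPKM + 0.1), Klf9-OE minus control, against mean FPKM on a log scale, for all genes (grey) and the members (black where intervals overlap, red where they do not). Dashed lines mark a difference of 1 on the log2 scale, and genes beyond 3 are not shown. *Gnb1* lies at -0.62 and *Gng5* at -0.34 at high level, and *Gng2* lies at 0.63 at low level.

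Since FPKM is per length, the levels of different genes can be added. The beta genes, with the joint *Gnb2* row, summed to 480.3 FPKM (467 to 493) in control and 337 FPKM (317 to 357) in *Klf9*-OE PGCs, a ratio of 0.701. The gamma members summed to 265 FPKM (251 to 279) in control and 213 FPKM (204 to 221) in *Klf9*-OE PGCs, a ratio of 0.802. Both sums were thus lower in *Klf9*-OE PGCs, with intervals that did not overlap. The alpha genes, which encode the third subunit, summed to 304 FPKM (298 to 309) and 287 FPKM (281 to 293), a ratio of 0.946. Their intervals did not overlap as deposited, but overlapped after the libraries were scaled to the same upper quartile (log2 ratio -0.052) or to the same sum (-0.018), whereas those of the beta and gamma sums did not overlap under either scaling. Without *Gnb2*, the sum over the beta genes was 392 and 261 FPKM.

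A single gene supplied most of each sum. *Gnb1* made up 78.5% of the beta sum in control and 72.9% in *Klf9*-OE PGCs. The joint *Gnb2* row made up 18.3% and 22.4%, and *Gnb4* made up 2.38% and 3.85%. *Gng5* made up 95.5% of the sum over the gamma members in control and 94.3% in *Klf9*-OE PGCs. When the other gamma genes were added, the share of *Gng5* was 90.7% and 84.2%, and *Gngt2*, which is no member, made up 3.63% and 8.93%. The ratio of beta to gamma sums with these genes added was 1.72 in control and 1.41 in *Klf9*-OE PGCs. These ratios describe RNA, not protein.

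**Figure D3:**
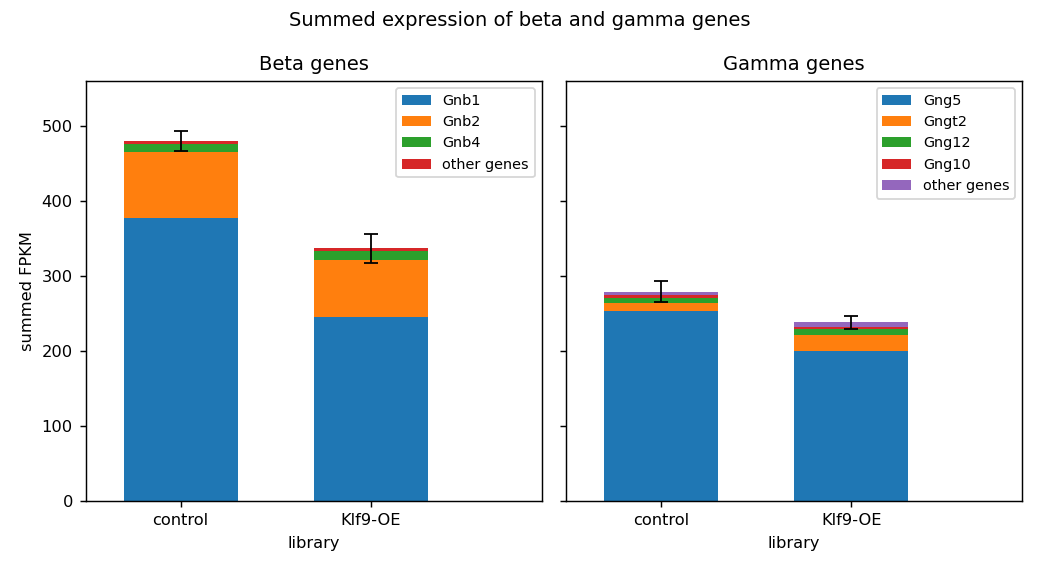
Summed FPKM of the beta genes (left, with the joint row of *Gnb2*) and of the gamma genes (right, members and other gamma genes) in the control and Klf9-OE libraries, split by gene. Error bars are the 95% bounds of each sum, from the Cufflinks bounds of its genes. The beta sum is 480.3 FPKM in control and 337 FPKM in Klf9-OE PGCs, mostly *Gnb1*, and the gamma sum is mostly *Gng5*.

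Of 7 other gamma genes, 6 were above 0. In *Klf9*-OE PGCs, 3 had intervals above those of control and 0 had intervals below, against 11.2% and 14.4% of all genes. For *Gng3* and *Gng8* this follows from a control value listed at 0 with no interval, so *Gngt2* is the only one of the 3 with an interval in both libraries. The median log2 fold change was 0.56 over the 6 genes and -0.00075 over the 4 above 0 in both libraries. *Gngt2*, a gamma gene first known from cone photoreceptors, had 10.1 FPKM (8.04 to 12.3) in control and 21.3 FPKM (18.5 to 24.1) in *Klf9*-OE PGCs, and its log2 fold change was 1.06. *Abi3*, on the opposite strand, covers 12.5% of the exonic bases of *Gngt2*, and had 1.36 FPKM (1.11 to 1.61) and 1.96 FPKM (1.69 to 2.22). *Gng3* and *Gng8*, known from neurons, were listed at 0 in control and had 0.522 FPKM (0.311 to 0.733) and 0.416 FPKM (0.147 to 0.684) in *Klf9*-OE PGCs. *Gng3*, *Gng8* and *Abi3* were named after their values were seen. *Gng4* had 2.76 FPKM (2.37 to 3.15) and 2.26 FPKM (1.94 to 2.58). Macrophage and blood markers were low. The 8 such genes above 0 summed to 7.96 FPKM in control and 10.6 FPKM in *Klf9*-OE PGCs. Of the 8, 1 (*Csf1r*) was higher with intervals that did not overlap and 0 were lower, against 11.2% and 14.4% of all genes. The widths for *Csf1r* correspond to 31.0 reads in control and 46.6 in *Klf9*-OE PGCs. They did not follow its FPKM, whose ratio was 3.85, so the read numbers behind *Csf1r* are unknown. The part of these markers in the *Gngt2* difference was not tested.

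Of the alpha genes, 15 were above 0, and 13 had at least 1 FPKM in at least 1 library. In *Klf9*-OE PGCs, 5 were lower with intervals that did not overlap (*Gna13* not when widened), while 0 were higher. The shares were 14.4% and 11.2% of all genes, and 20.2% and 14.8% of genes with at least 1 FPKM. With widened intervals, 12.0% of all genes and 16.8% of genes with at least 1 FPKM were lower. The median log2 fold change of the alpha genes was -0.11. *Gnai2*, of the inhibitory class, had 68.4 FPKM (66.2 to 70.6) and 68.7 FPKM (65.2 to 72.2), and *Gnas*, of the stimulatory class, had 61.4 FPKM (58.4 to 64.4) and 60.8 FPKM (57.3 to 64.2). The intervals of both of these alpha genes, the most abundant ones, overlapped. *Gna14*, of the Gq class, had 2.64 FPKM (2.29 to 2.99) and 1.54 FPKM (1.30 to 1.78), and *Gna15*, of the same class, had 0.496 FPKM (0.292 to 0.700) and 1.01 FPKM (0.581 to 1.44). The widths for *Gna15* correspond to 23.7 and 22.2 reads and did not follow its FPKM.

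Of 13 genes of folding and alpha chaperones above 0, 3 were lower and 1 was higher in *Klf9*-OE PGCs with intervals that did not overlap, against 20.2% and 14.8% of genes with at least 1 FPKM, with a median log2 fold change of -0.095. With widened intervals, *Cct5* and *Ric8* overlapped, which left 1 lower. Under this rule 11.7% of genes with at least 1 FPKM were higher and 16.8% lower. The CCT subunit genes *Cct8* and *Cct3* had 596 and 507 FPKM in control and 556 and 475 FPKM in *Klf9*-OE PGCs, with intervals apart for *Cct3* only. Their ratios were alike, at 0.933 and 0.936. The half-width of *Cct3* was 3.30% of the value in control and 1.21% in *Klf9*-OE PGCs. *Cct4*, named for its interval of 0 to 14039 FPKM in control, could not be called. *Ric8*, the name in the files for a chaperone of alpha subunits, had 20.2 FPKM (18.9 to 21.6) and 17.7 FPKM (16.6 to 18.9). *Pdcl2*, a phosducin-like gene of germ cells, had 0.358 FPKM (0.106 to 0.610) and 3.66 FPKM (2.58 to 4.74). The widths for *Pdcl2* correspond to 8.1 and 45.8 reads and did not follow its FPKM, whose ratio was 10.2. Of 4 genes found for prenylation and the later processing of the gamma C terminus, 2 were higher with intervals that did not overlap, against 14.8% of genes with at least 1 FPKM, and the call of *Icmt* was lost with widened intervals. These were *Icmt*, the methyltransferase of this pathway, with 12.0 FPKM (11.3 to 12.8) and 13.6 FPKM (12.8 to 14.4), and *Zmpste24*, a CAAX protease, with 7.75 FPKM (7.16 to 8.34) and 9.65 FPKM (9.05 to 10.3).

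Among 20 genes of proteins that bind or answer to the dimer, 3 were higher and 4 were lower in *Klf9*-OE PGCs with intervals that did not overlap, and the median log2 fold change was 0.034. The shares over all genes were 11.2% and 14.4%, and those over genes with at least 1 FPKM were 14.8% and 20.2%. With widened intervals 1 was higher and 2 were lower, without *Plcb4*, *Plekhg2*, *Pik3r5* and *Prex2*. Under this rule 8.46% of all genes were higher and 12.0% lower, and 11.7% and 16.8% of genes with at least 1 FPKM. *Adcy2*, an adenylate cyclase that the dimer stimulates together with G alpha s, had 1.59 FPKM (1.34 to 1.83) and 3.76 FPKM (3.18 to 4.35). The widths of the *Adcy2* intervals did not follow the FPKM: they correspond to 166 reads in control and 165 in *Klf9*-OE PGCs. The FPKM ratio was 2.37, so the read numbers behind *Adcy2* are unknown. The part of this in its difference was not tested. *Adrbk2*, a receptor kinase that the dimer recruits to the membrane, had 1.03 FPKM (0.860 to 1.19) and 0.506 FPKM (0.404 to 0.607). Its relative *Adrbk1* had 17.9 FPKM (16.8 to 19.0) and 16.3 FPKM (15.3 to 17.4), and the phospholipase gene *Plcb3* had 42.6 FPKM (40.4 to 44.8) and 38.7 FPKM (36.7 to 40.7). Of the 7 partners of *Gnb5* above 0, none had intervals apart, whereas 11.2% of all genes were higher and 14.4% lower. With so few genes this is near the background. Only *Rgs9* reached 1 FPKM, with 1.07 FPKM (0.901 to 1.23) in control and 0.874 FPKM (0.659 to 1.09) in *Klf9*-OE PGCs.

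Genes with names like those of the members encode other WD repeat proteins. *Gnb1l*, which is no subunit of a G protein, had 7.72 FPKM (6.95 to 8.49) in control and 2.63 FPKM (2.31 to 2.95) in *Klf9*-OE PGCs, and its log2 fold change was -1.52. The widths for *Gnb1l* correspond to 402 and 271 reads and did not follow its FPKM, whose ratio was 0.341. *Gnb2l1*, which encodes the ribosomal scaffold RACK1, had 1001 FPKM (958 to 1044) and 945 FPKM (905 to 986).

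**Figure D4:**
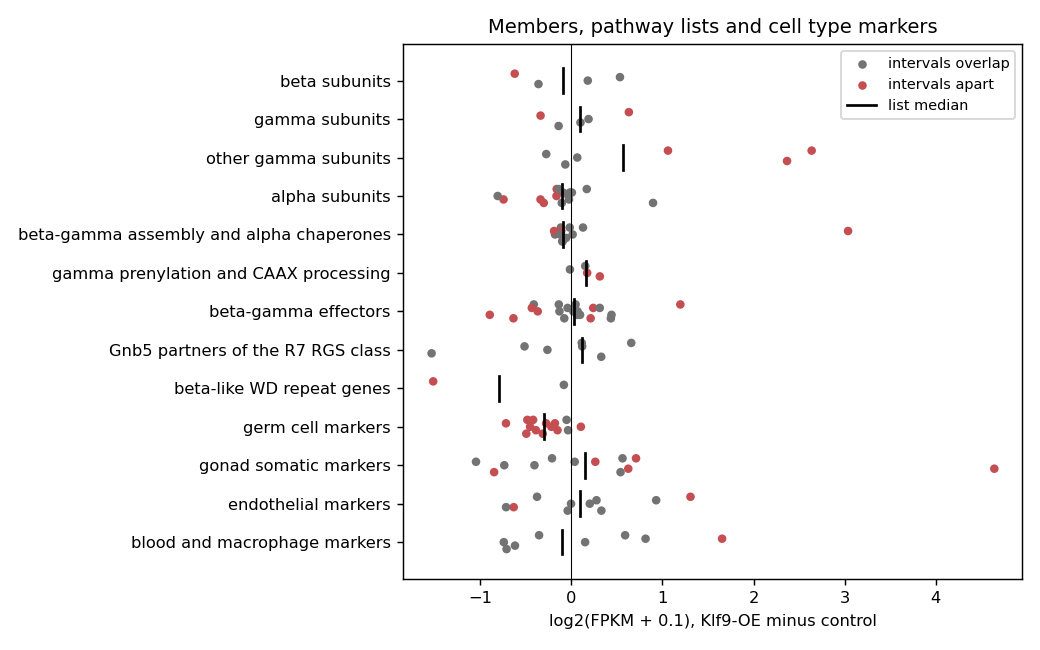
Difference between the libraries on the scale of log2(FPKM + 0.1), Klf9-OE minus control, for each gene above 0 of the members, of the pathway lists and of the cell type markers. Red points have Cufflinks intervals that do not overlap, grey points have intervals that overlap, and black bars are list medians, with -0.30 for germ cell markers and 0.56 for the other gamma genes.

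Most germ cell markers were lower in *Klf9*-OE PGCs, as *Gnb1* and *Gng5* were. Of 14 such genes, all with at least 1 FPKM, 11 were lower and 1 (*Dazl*, not when widened) was higher in *Klf9*-OE PGCs with intervals that did not overlap, against 20.2% and 14.8% of genes with at least 1 FPKM. The median log2 fold change was -0.30, and they summed to 1889 FPKM in control and 1596 FPKM in *Klf9*-OE PGCs. *Dppa3*, a marker of early germ cells, had 294 FPKM (279 to 309) and 179 FPKM (169 to 188), and *Nanos3*, which keeps PGCs alive, had 24.6 FPKM (21.9 to 27.4) and 17.5 FPKM (15.5 to 19.5). In bulk libraries such as these, fewer cells of a type and less RNA per cell cannot be told apart. Of 12 gonad somatic markers above 0, 4 were higher and 1 was lower with intervals that did not overlap, against 11.2% and 14.4% of all genes. These markers summed to 26.3 and 34.3 FPKM. Of the 4 that were higher, *Gata4* overlapped when widened and *Star* was listed at 0 in control. *Amh*, of Sertoli cells, had 5.99 FPKM (5.20 to 6.78) and 9.29 FPKM (8.41 to 10.2), *Gata4* had 6.21 FPKM (5.67 to 6.74) and 7.47 FPKM (6.93 to 7.998), and *Sox9* had 2.04 FPKM (1.76 to 2.31) and 1.09 FPKM (0.906 to 1.27). *Star*, of steroid-producing cells, was listed at 0 in control and had 2.39 FPKM (2.12 to 2.67) in *Klf9*-OE PGCs.

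Of 10 endothelial markers, 1 was higher and 1 (*Tek*, not when widened) was lower with intervals that did not overlap, against 11.2% and 14.4% of all genes. These markers summed to 13.5 and 18.5 FPKM. *Cdh5*, the cadherin of endothelial junctions, had 1.995 FPKM (1.66 to 2.33) and 5.09 FPKM (4.57 to 5.60), and *Egfl7* had 8.10 FPKM (6.92 to 9.27) and 10.2 FPKM (9.01 to 11.4). Among macrophage and blood markers, *Cd68* had 3.69 FPKM (2.94 to 4.44) and 4.11 FPKM (2.76 to 5.46), *Fcer1g* had 3.04 FPKM (2.05 to 4.03) and 4.63 FPKM (3.33 to 5.93), and *Csf1r* had 0.307 FPKM (0.196 to 0.417) and 1.18 FPKM (0.834 to 1.53). The part of cell make-up in the differences of *Gnb1*, *Gng5* and *Gng2* was not tested.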

How the data were processed

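RNA from 1 control and 1 *Klf9*-OE culture was sequenced as 51-mer single-end reads with a kit that does not keep strand. For mapping, the authors used TopHat2 and Bowtie with mm10 and RefSeq genes, and Cufflinks gave the expression values (versions not given in the sources used here). The deposited values are FPKM for each gene or locus with 95% bounds. Cufflinks assembled each library separately, so the transcript length behind a value can differ between libraries. Loci without a gene name entered no comparison, and rows marked as failed (1 in control, 5 in *Klf9*-OE) were left out.

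FPKM of rows with the same symbol was summed, with half-widths combined in quadrature. Log2 fold changes used log2(FPKM + 0.1), which understates the change of low genes. Counts were made of genes whose ratio reached 2 or fell to 0.5, and of genes whose bounds did not overlap. Intervals of ratios combined the relative half-widths of both values on the log scale. The reads behind a value were taken as (2 times FPKM over the distance to the upper bound), squared. They count as read numbers only where the ratio of reads, corrected for depth, and that of FPKM were within 10%. For other genes they are given only to show that the widths did not follow the FPKM. With 1 library per condition, no test between conditions was made. Members and lists were chosen with earlier results of these data known. All 10 members were named, and of each list, among genes with at least 1 FPKM in at least 1 library, the 2 most abundant and the 2 with the largest log2 difference. Alternatives were pseudocounts of 0.01 and 1, 2 scalings, a minimum of 1 FPKM, a ratio of 1.5, the highest row of a symbol and wider *Klf9*-OE intervals. The joint *Gnb2* row, wider intervals for the lists, the alternatives for the alpha sum, the intervals of ratios, the promoter search and the checks of shared and overlapping bases were added after the data were seen. Gene models came from GENCODE M21 and promoter bases from RefSeq (GRCm38.p6), and protein sequences were not used here. The fold and interval counts were tested on simulated data with known changes. Python 3.11.15, numpy 2.4.6, pandas 2.3.3 and matplotlib 3.10.9 were used.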

Additional observations from a re-analysis of the deposited data

How the results depend on the processing

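Of 136 values recomputed under alternatives, 118 stayed within the spread set for them (the estimation interval or spread of a value, or 1.5 times a count), 16 moved beyond it and 2 lost an interval call. Some of the 118 could not differ, since each member and *Klf9* kept its main value with the highest row of a symbol. The tally alone is therefore no measure of stability. With a pseudocount of 1, the log2 fold change of *Klf9* was 4.64 in place of 5.09. With the sum of FPKM made equal, the log2 ratio of the beta sum was -0.53 in place of -0.59, and with the joint *Gnb2* row it was -0.51. With at least 1 FPKM required, 0 members were at least 2-fold higher, since *Gnb3* was removed, against 3.93% of such genes. With a ratio of 1.5, 2 members were higher (*Gnb3* and *Gng2*) and 1 was lower (*Gnb1*), against 16.1% and 15.1% of all genes. With the *Klf9*-OE interval widened, 0 members had intervals apart and higher, since *Gng2* was lost, whereas with either scaling there were 2 (*Gnb4* and *Gng2*). With equal upper quartiles 12.7% of all genes were apart and higher and 12.7% apart and lower. With equal sums these shares were 15.3% and 10.8%. The log2 ratio of the alpha sum was -0.052 with equal upper quartiles and -0.018 with equal sums, with intervals that overlapped. With the *Klf9*-OE intervals widened, the genes apart and lower numbered 1 among chaperones, 2 among effectors and 0 among endothelial markers, and those apart and higher numbered 1 among effectors, 1 in prenylation and 0 among germ cell markers. Under this rule 8.46% of all genes were higher and 12.0% lower. Without genes listed at 0, 1 other gamma gene was apart and higher. The alternatives for these lists and for the alpha sum were chosen after seeing the data. *Gnb1* and *Gng5* had intervals apart and lower with either scaling and with the *Klf9*-OE intervals widened. The other alternatives could not change this call for these genes. The median log2 fold change of the members ranged from -0.14 to 0.15, on both sides of 0. Scaling moved the median of all genes from -0.015 to 0.0099 or 0.041. No paired analysis was possible because each condition had 1 library, and leaving out a library would leave a condition empty. Depth limits *Gng11*, with few reads, and *Gnb3*, with less than 1 FPKM in both libraries and an unknown number of reads.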
